A study of Mus musculus with 35 samples.

Results

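Axon guidance ligands and receptors are the secreted and membrane-bound proteins by which growing axons and migrating cells are attracted or repelled. The set described here holds every gene whose symbol belongs to the semaphorins, plexins, neuropilins, ephrins, Eph receptors, Slits, Robos, netrins, netrin-G proteins, Unc5 receptors or Dcc, which gave 68 of the 22180 genes measured. They were 20 semaphorins, 11 plexins and neuropilins, 8 ephrins, 13 Eph receptors, 7 Slits and Robos and 9 netrins with their receptors. Primary enteric glia from the small intestinal muscularis externa of wildtype mice on a BL6 background (C57BL6 in the study's methods) were grown as neurospheres for 7 days with FGF and EGF. The dissociated spheres were differentiated on Matrigel, an extract rich in basement membrane, on laminin, one of its main proteins, or on the synthetic polymer poly-L-ornithine, for 3 days by the labels and 5 days by the methods. Each coating had 5 naive libraries and 5 libraries treated with interleukin-1β (IL-1β, 10 ng/ml for 24 h). The seventh group, RiboTag naive, consisted of 5 libraries from Sox10iCreERT2Rpl22HA/+ mice that were Cre+ and received no IL-1β, in which cells with Sox10-driven, tamoxifen-inducible Cre activity carry HA-tagged ribosomes, and the mRNA bound to these ribosomes was precipitated from whole muscularis externa. By the methods, the RiboTag mice were injected with tamoxifen and rested before organ harvest. Cultured RNA was total RNA of all cells in the well. All mice were 8 to 16 weeks old. The labels call the 5 libraries of a group biological replicates.

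Semaphorins signal through plexins, and most secreted class 3 semaphorins need a neuropilin as co-receptor. Ephrins are tethered to the cell surface and bind Eph receptor tyrosine kinases on neighbouring cells, with signals into both cells. Slits repel through Robo receptors, whereas netrins attract through Dcc and repel through Unc5 receptors. In the gut these systems are known from the migration of neural crest cells and the layout of the enteric nervous system, and semaphorins, Slits and ephrins also act in blood vessels and immune cells.

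Every value is a normalized count, the reads assigned to a gene after division by 1 size factor per library, from 3' end libraries in which long transcripts do not count more than short ones. Library totals ran from 7522181 to 9185843 normalized counts. Of 14 enteric glia markers, 13 or 14 had a group mean above 15 in each group, and their summed level was 19963 to 42678 in naive cultures, 13317 to 29465 after IL-1β and 41723 to 60663 in RiboTag libraries. The 12 smooth muscle markers summed to 8637 to 45133, 2865 to 18285 and 352516 to 592697 in the same order, so RiboTag libraries held far more smooth muscle RNA than cultures. The 12 fibroblast markers summed to 35194 to 103624, 23836 to 106397 and 11872 to 14729, and the 16 markers of enteric neurons to 7264 to 15784, 6223 to 12506 and 16147 to 22537. Every sum is of bulk RNA, in which fewer cells of a type and less RNA per cell cannot be told apart.

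The set was broadly present. All 68 members exceeded 15 normalized counts in at least 1 library, 25 did so in all 35 libraries, 52 had a mean above 15 over the cultures and 57 in RiboTag libraries. The order of levels was led by receptors. Nrp2, a neuropilin that binds class 3 semaphorins, had the highest mean of the 7 group means at 1984, followed by Plxnb2, a plexin receptor for class 4 semaphorins, at 1751. The next were the secreted semaphorin Sema3b at 998, the receptor tyrosine kinase Ephb3 at 752, the neuropilin Nrp1 at 655 and the secreted semaphorin Sema3c at 556. Nrp2 and Plxnb2 overlapped in their ranges over the cultures, with 766 to 3484 against 1236 to 2705, and so did Sema3b at 241 to 1543 and Ephb3 at 50.2 to 2310.2. A further 15 members had a mean under 15, among them Dcc, Efna1, Efnb3, Robo3, Robo4, Slit1 and Unc5d.

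Within each family the 2 most abundant members were Sema3b and Sema3c, Nrp2 and Plxnb2, Efnb1 and Efna5, Ephb3 and Ephb2, Slit2 and Slit3, and Unc5b and Ntn1. Summed over a family, plexins and neuropilins came first in every culture group, with 5687 ± 815 (SD, n = 5) on naive Matrigel. Semaphorins followed at 4001 ± 649 on naive Matrigel, and reached 8084 ± 932 in RiboTag libraries, where they exceeded plexins and neuropilins. Netrins and their receptors summed to 537 ± 57.2 on naive Matrigel and 1435 ± 196 in RiboTag libraries. For both families every RiboTag library lay above every culture library. Ephrins summed to 1054 ± 154, 966 ± 143 and 1180.3 ± 179 on naive Matrigel, laminin and poly-L-ornithine and to 618 ± 171, 728 ± 176 and 614 ± 110.4 after IL-1β.

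**Figure D1:**
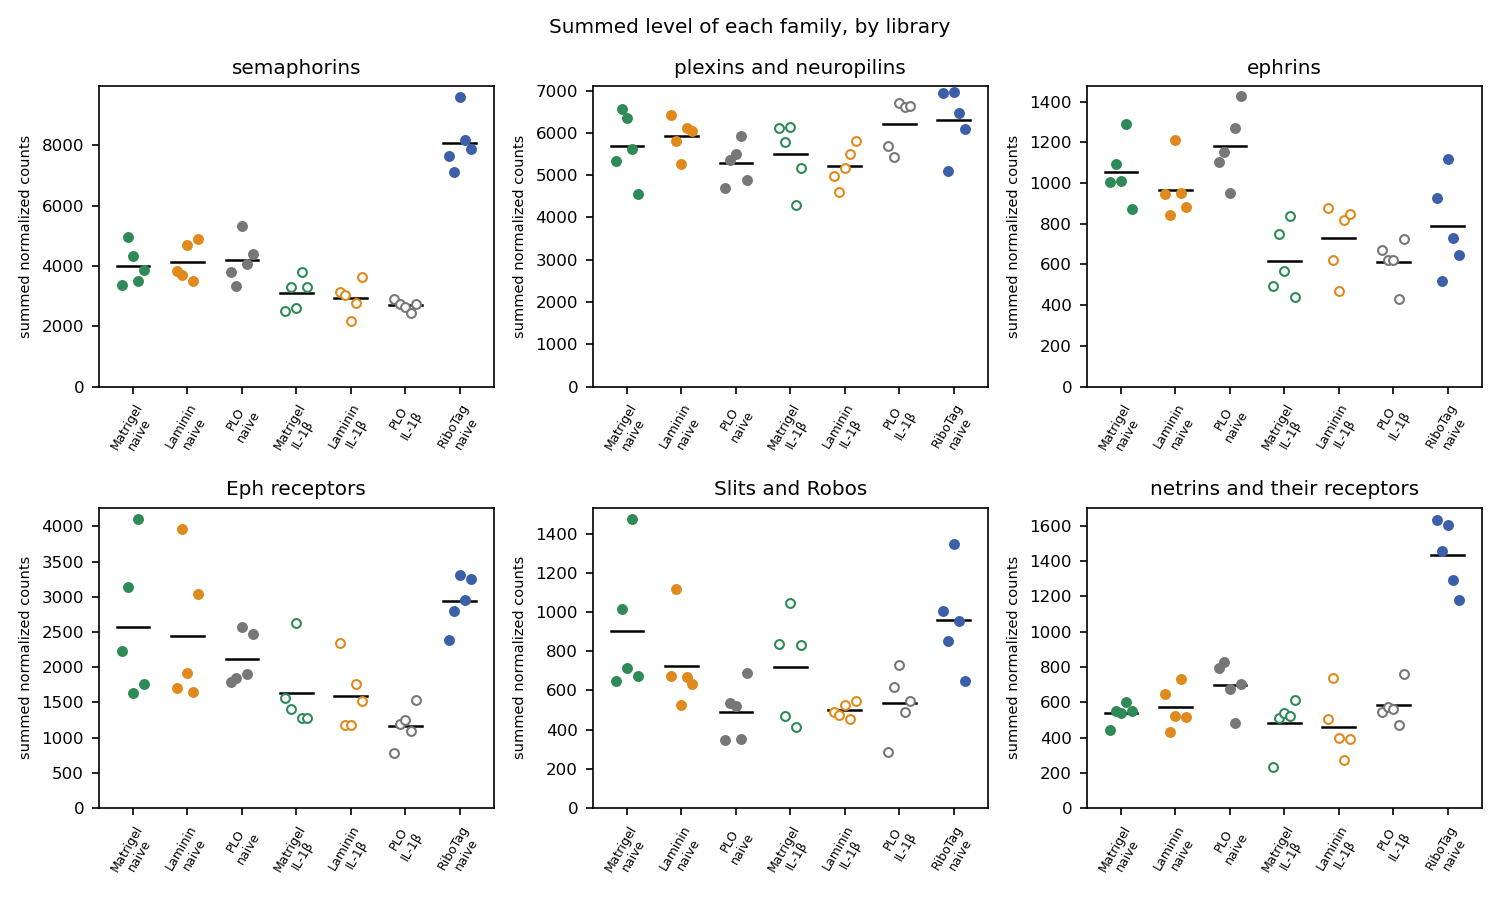
Summed normalized counts of each family (vertical axes, starting at 0) in every library of the 7 groups, with filled points for naive and open points for IL-1β libraries and a line at the group mean. Semaphorins and netrins with their receptors lie highest in the 5 RiboTag libraries. The group means of semaphorins, ephrins, Eph receptors and netrins with their receptors are lower after IL-1β than in the naive group of the same coating. Single libraries of these groups overlap on some coatings.

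The response to IL-1β was tested with limma on log2(normalized count + 2), in a single fit of the 30 culture libraries with adjustment over all 20687 genes tested. Log2 differences on this scale understate changes of genes with few counts. Over the coatings 15 of 68 members fell and 3 rose at an adjusted p under 0.05, where 4.02% of all genes tested fell and 3.42% rose. The median log2 difference was -0.57 over the members and -0.04 over all genes. The members that rose were Nrp2, Plxnd1 and Robo2, all receptors. Those that fell were the semaphorins Sema5a, Sema4f, Sema3d, Sema3a and Sema3e, the receptors Plxnb3, Plxna4 and Nrp1, the ephrins Efnb1 and Efna3, the Eph receptors Ephb6, Epha5 and Ephb3, and Slit2 and Ntn3. In 3 of them, Sema5a, Plxnb3 and Efnb1, every IL-1β library lay below every naive library on each of the 3 coatings, as 0.193% of all genes tested did. No member lay above in the same way, as 0.561% of all genes did. The summed markers of glia, neurons, smooth muscle, fibroblasts, interstitial cells of Cajal, mesothelium and epithelium were lower in median after IL-1β on every coating, and their part in these differences was not tested.

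**Figure D2:**
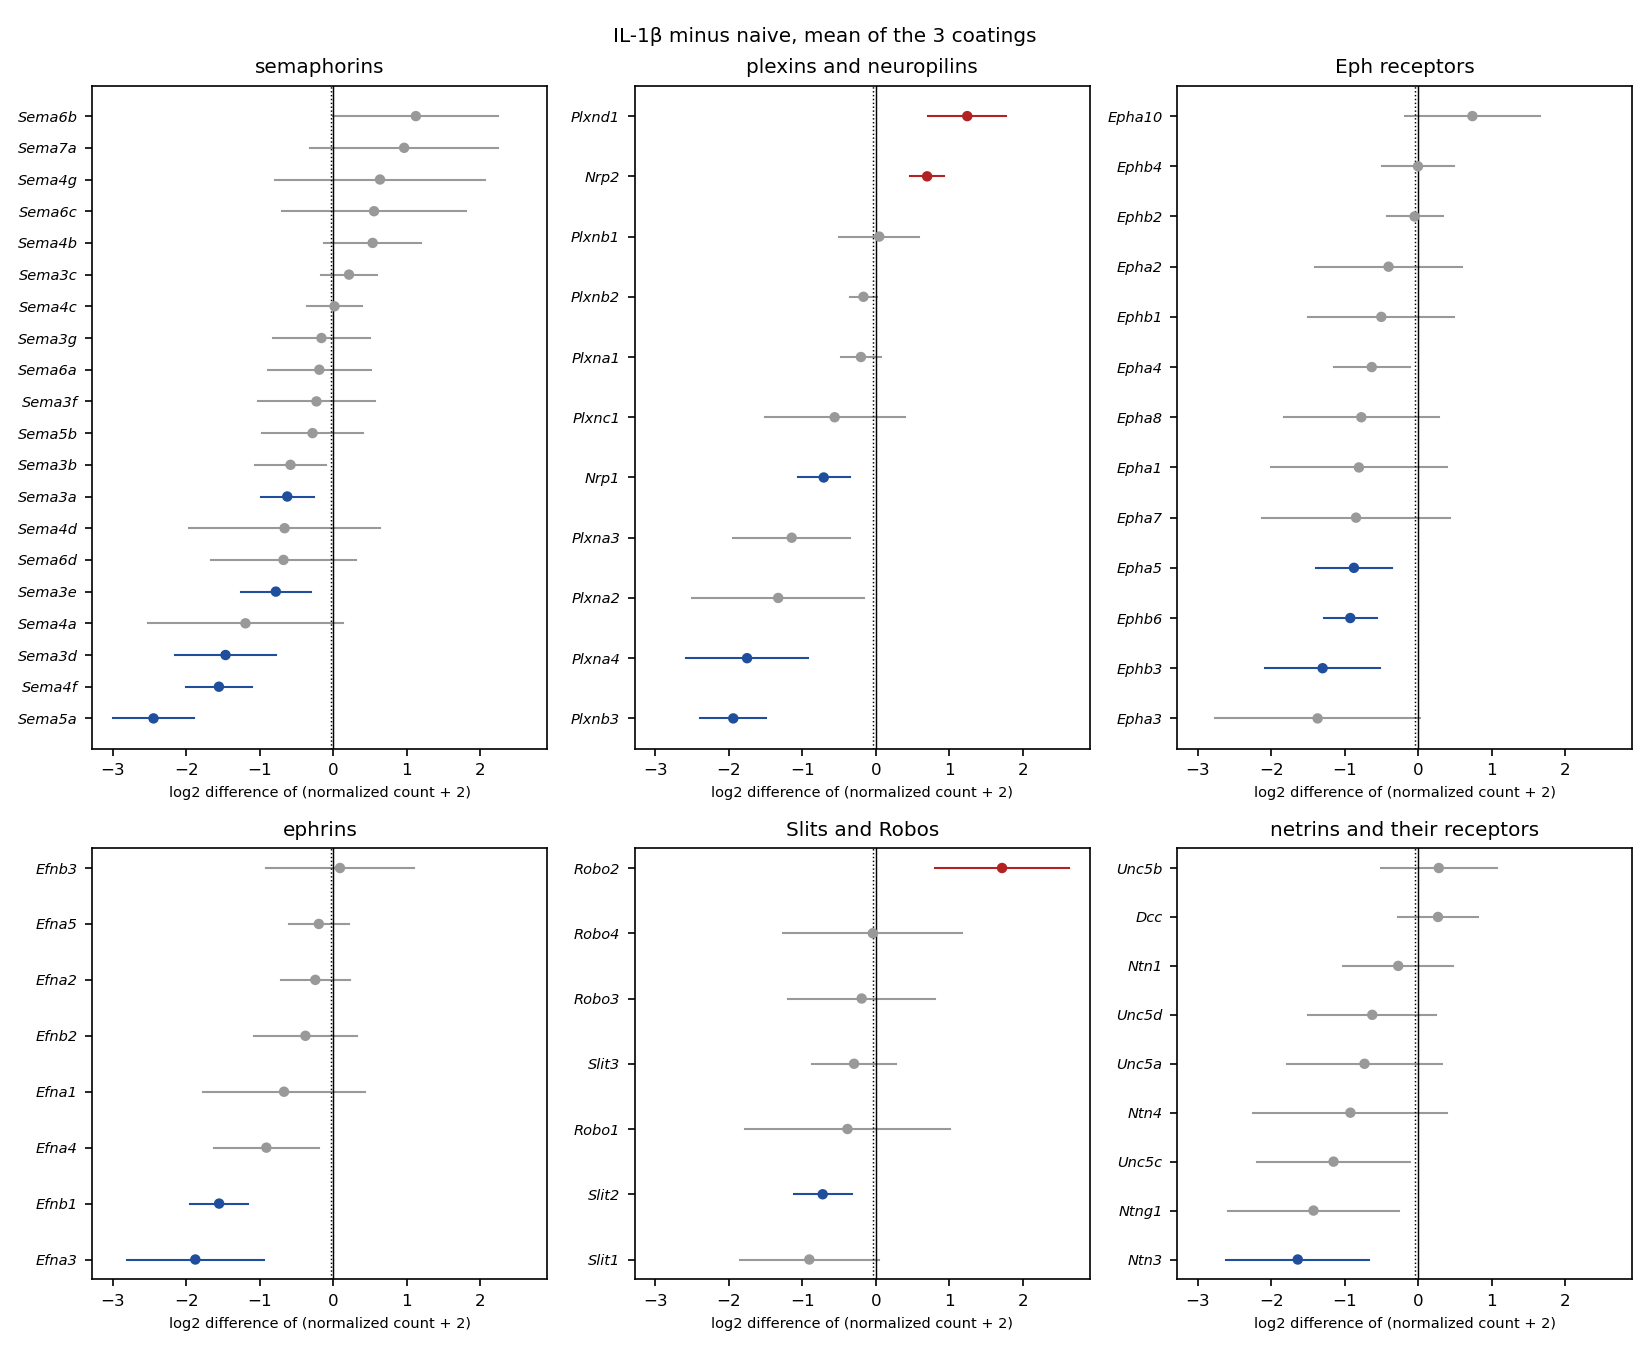
Log2 difference of (normalized count + 2) between IL-1β and naive cultures, averaged over the 3 coatings, for all 68 members by family. Points are estimates with 95% confidence intervals, blue for the 15 members that fell, red for the 3 that rose and grey for the others, and the dotted line marks the median of all genes at -0.04.

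Sema5a, a transmembrane semaphorin with thrombospondin repeats that can attract or repel axons, changed most. It lies on chromosome 15 (32244813 to 32696341, GRCm38.p6, the assembly also called mm10) and shares no bases with another annotated gene. Its 5 naive values were 289, 514, 486, 636 and 228 on Matrigel, 295, 378, 258, 322 and 481 on laminin and 247, 134, 416, 299 and 271 on poly-L-ornithine. After IL-1β they were 86.4, 64.0, 54.0, 112 and 84.9, 101, 64.9, 33.6, 63.3 and 70.7 and 98.7, 4.35, 36.2, 109 and 48.0. The 3 treated groups lay wholly below their naive groups, and the difference over the coatings was -2.45 (95% CI -3.00 to -1.90, adjusted p = 6.29e-10). On the single coatings it was -2.34, -2.39 and -2.61.

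Plxnb3 encodes plexin-B3, a receptor of semaphorin 5A, and it fell beside its ligand. The gene lies on the X chromosome (73756556 to 73772510). Naive libraries held 179, 417, 250.05, 324 and 195 on Matrigel, 207, 257, 417, 241 and 326 on laminin and 391, 209, 478, 504 and 427 on poly-L-ornithine, and treated libraries 47.7, 74.0, 29.3, 98.0 and 64.4, 90.5, 150.4, 68.2, 54.9 and 97.0 and 149.8, 49.99, 144, 64.5 and 98.9. The ranges did not overlap on any coating (log2 difference -1.94, 95% CI -2.39 to -1.49, adjusted p = 1.49e-09). Neither Sema5a nor Plxnb3 lost its call on any single coating in any alternative fit.

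Efnb1, which encodes ephrin-B1, a transmembrane ligand of EphB receptors that also signals into its own cell, was the third member with no overlap. It lies on the X chromosome (99136061 to 99149022). On Matrigel it went from 427, 466, 353, 524 and 316 to 91.6, 136, 62.3, 258 and 102, on laminin from 560.3, 349, 391, 339 and 239.7 to 137, 179.7, 74.3, 151 and 87.5, and on poly-L-ornithine from 335, 411, 224, 364 and 415 to 220.4, 131, 101, 90.6 and 205. The lowest naive and the highest treated library were close on poly-L-ornithine, and the difference over the coatings was -1.55 (95% CI -1.95 to -1.16, adjusted p = 1.64e-08).

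Nrp2 was the abundant member that rose. It encodes neuropilin-2, a co-receptor of class 3 semaphorins and of vascular endothelial growth factors, on chromosome 1 (62703317 to 62818692). Naive values were 1212, 1997, 2215, 1254 and 1141 on Matrigel, 1959.8, 1180.0, 1278, 1272 and 1937 on laminin and 1047, 1202, 766, 1707 and 898 on poly-L-ornithine, and treated values 2667, 2182, 2458, 1503 and 1751, 1616, 1909.9, 1802, 2009 and 2240.3 and 2364, 2227, 2890.4, 3484 and 2376. The groups overlapped on Matrigel and laminin and were apart on poly-L-ornithine. The difference was 0.70 over the coatings (95% CI 0.47 to 0.93, adjusted p = 1.01e-05), with 1.28 on poly-L-ornithine, 0.46 on Matrigel and 0.36 on laminin. The response on Matrigel and laminin minus that on poly-L-ornithine was -0.87 (95% CI -1.36 to -0.39), which did not pass over all genes (adjusted p = 0.961).

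**Figure D3:**
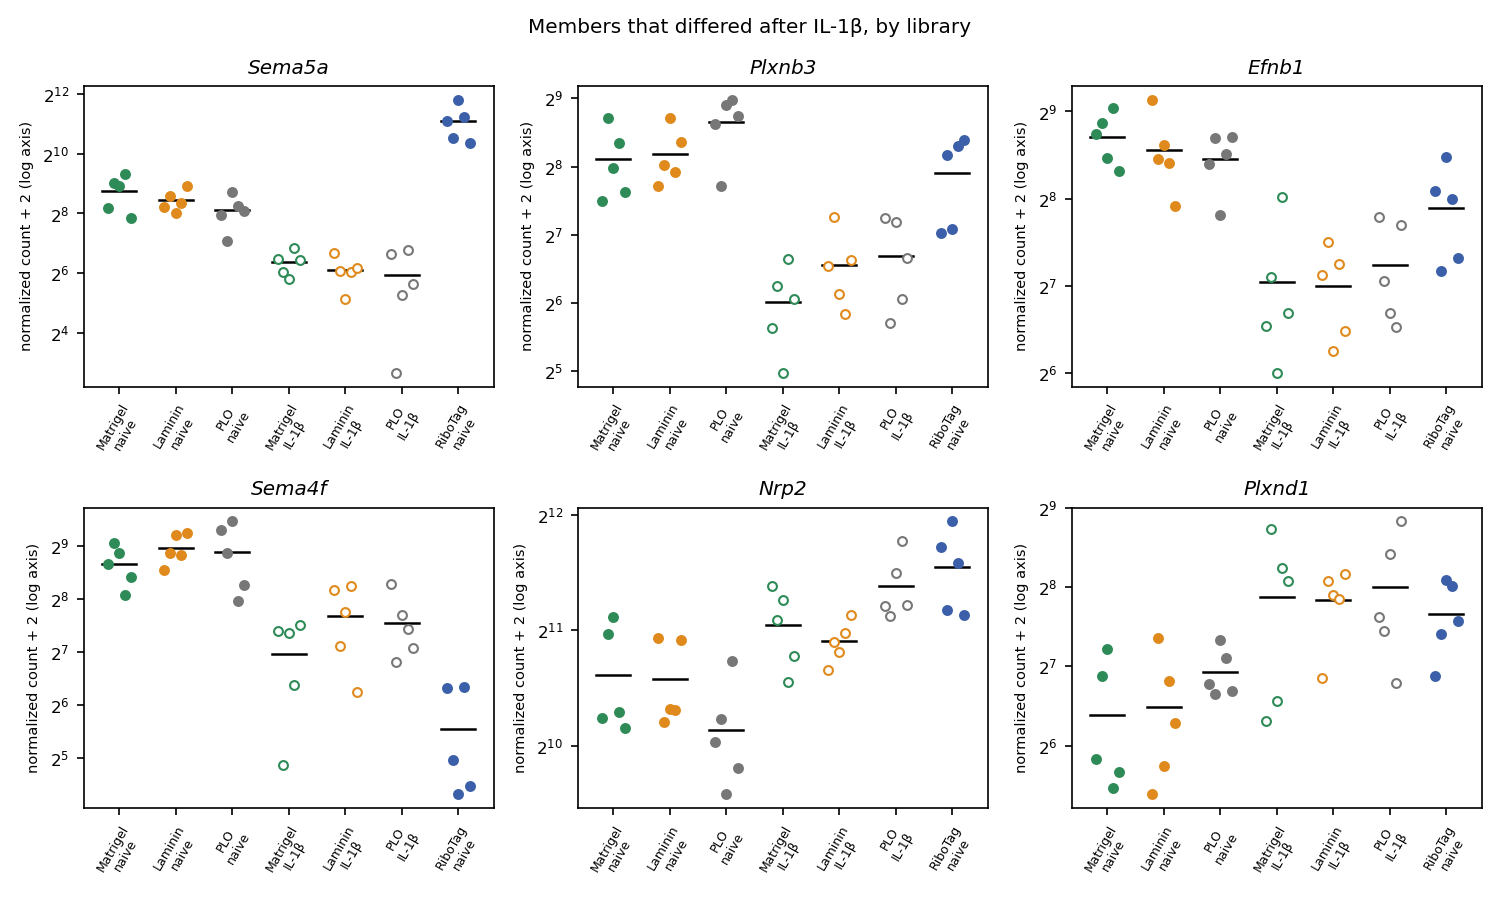
Normalized counts plus 2 on a log axis for Sema5a, Plxnb3, Efnb1, Sema4f, Nrp2 and Plxnd1 in every library of the 7 groups (PLO is poly-L-ornithine), with filled points for naive and open points for IL-1β libraries and a line at the group mean. The treated libraries of Sema5a, Plxnb3 and Efnb1 lie below the naive libraries of the same coating, and those of Nrp2 on poly-L-ornithine lie above.

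The 250 bases before the annotated start site are shown for 3 of these genes that changed, Sema5a and Efnb1 as members that fell on every coating and Nrp2 as the abundant member that rose. They come from RefSeq on GRCm38.p6, on the plus strand, at chr15:32244563-32244812 for Sema5a, chrX:99135811-99136060 for Efnb1 and chr1:62703067-62703316 for Nrp2. Capitals mark the GC box GGGCGG on either strand, where neighbouring boxes can overlap.
Sema5a: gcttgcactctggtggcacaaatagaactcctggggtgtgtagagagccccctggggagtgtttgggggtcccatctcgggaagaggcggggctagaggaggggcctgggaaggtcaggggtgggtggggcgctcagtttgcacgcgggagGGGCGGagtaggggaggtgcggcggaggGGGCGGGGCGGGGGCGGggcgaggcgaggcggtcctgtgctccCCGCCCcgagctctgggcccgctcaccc
Efnb1: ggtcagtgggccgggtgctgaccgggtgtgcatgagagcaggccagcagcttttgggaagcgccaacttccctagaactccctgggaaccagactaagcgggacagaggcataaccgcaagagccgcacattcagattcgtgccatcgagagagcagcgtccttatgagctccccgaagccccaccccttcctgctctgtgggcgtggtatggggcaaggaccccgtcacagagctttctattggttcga
Nrp2: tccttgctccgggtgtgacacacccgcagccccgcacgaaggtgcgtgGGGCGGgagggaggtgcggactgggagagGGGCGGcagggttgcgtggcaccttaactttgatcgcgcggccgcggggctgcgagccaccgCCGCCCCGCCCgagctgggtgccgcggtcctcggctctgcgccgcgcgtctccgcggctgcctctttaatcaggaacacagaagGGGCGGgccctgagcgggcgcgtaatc
Sema5a and Nrp2 held 5 GC boxes each in this window and Efnb1 none, beside 17, 32 and 13 CG dinucleotides. Promoter windows of 300 bases, with 50 bases past the start site, were given for 17 of the 18 members that changed, as 20 windows. The AP-1 motif TGANTCA was in none of the 20 windows, beside 7.8% of the 32851 promoter windows of all genes, and the κB consensus was in none, beside 8.5%. The GC box was in 12 windows (60%, beside 35.7%), which belonged to 9 members that fell and 2 that rose. The 20 windows held a median of 16.5 CG dinucleotides, and all windows a median of 7. Members that did not change and the other genes tested were not looked at separately. These shares are therefore not shown to be particular to the members that changed. A match of letters is not a site in use, and a window without one says nothing of the factor.

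Among the other semaphorins, Sema4f, a transmembrane semaphorin, fell from 248 to 709 (median 466) in the 15 naive libraries to 27.0 to 309 (median 168) in the 15 treated ones. The ranges overlapped in few libraries (log2 difference -1.56, 95% CI -2.01 to -1.10, adjusted p = 1.02e-06). Sema3d, a secreted semaphorin, went from 49.2 to 245 (median 123) to 5.43 to 80.6 (median 52.9), a difference of -1.47 (95% CI -2.15 to -0.78, adjusted p = 0.002). Sema3a, the secreted repellent that signals through Nrp1 and class A plexins, went from 122 to 681 (median 387) to 127 to 435 (median 279) (-0.63, adjusted p = 0.0181, and 0.0569 with a constant prior). On poly-L-ornithine its values of 398, 569.5, 577, 481 and 681 became 279, 259.7, 249.7, 255 and 165, with no overlap, and the Matrigel difference was 0.02. Its response on Matrigel and laminin minus that on poly-L-ornithine did not pass (adjusted p = 0.961). Sema3e, the ligand of plexin-D1, went from 323 to 826 (median 585) to 155 to 935 (median 259) with wide overlap (adjusted p = 0.0341). Its call was lost in 15 of 30 fits that each left out 1 library, up to an adjusted p of 0.062, and with a constant prior (0.0563). The 15 other semaphorins did not pass, including the abundant Sema3b (303 to 1543 (median 764) against 241 to 1039 (median 487), adjusted p = 0.164) and Sema3c (192 to 815 (median 571) against 363 to 1006 (median 584), adjusted p = 0.636).

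The receptors of class 3 semaphorins moved both ways. Plxnd1, the receptor that Sema3e binds without a neuropilin, rose from 39.8 to 162 (median 101) to 77.4 to 453 (median 236) (log2 difference 1.24, 95% CI 0.71 to 1.77, adjusted p = 0.000627), in overlapping ranges. Nrp1, the co-receptor of Sema3a, fell from 485 to 1260.4 (median 825) to 232 to 1114 (median 455) (-0.71, adjusted p = 0.00529). Plxna4, a plexin that transmits Sema3a and class 6 signals, fell from 10.5 to 249.8 (median 143) to 0 to 141 (median 35.9) (log2 difference -1.75, 95% CI -2.58 to -0.92, adjusted p = 0.00254), and on laminin the values were 149.6, 136, 182, 70.1 and 143 before and 24.5, 30.9, 20.4, 35.9 and 59.1 after, without overlap. Plxna4 shares bases with the antisense transcript Plxna4os1. Use of strand in counting is not given in the sources used here, so reads of the pair cannot be told apart. Plxnb2 and Plxna1, the abundant plexins, gave -0.17 (95% CI -0.35 to 0.02) and -0.20 (95% CI -0.47 to 0.07) and did not pass.

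Of the ephrins, Efna3, a GPI-anchored ligand of EphA receptors, fell beside Efnb1. It ranged over 34.9 to 164 (median 92.4) in naive and 0 to 93.9 (median 30.2) in treated cultures (log2 difference -1.88, 95% CI -2.81 to -0.95, adjusted p = 0.00397). Its laminin values of 95.6, 112, 57.1, 142 and 103 became 0, 5.54, 0, 32.7 and 93.9, so 1 treated library stayed within the naive range. Efna5, the other abundant ephrin, did not pass (111 to 285 (median 234) against 92.7 to 398 (median 166), log2 difference -0.20, 95% CI -0.61 to 0.21).

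Among the Eph receptors, Ephb6, a member without kinase activity, fell from 218 to 665 (median 331) to 96.6 to 302 (median 195) (log2 difference -0.92, 95% CI -1.29 to -0.56, adjusted p = 0.000181). Epha5, a receptor of A ephrins, went from 124 to 654 (median 211) to 50.02 to 333 (median 136) (adjusted p = 0.0225), and without naive Matrigel replicate 2, its highest library at 654, the adjusted p was 0.0529, and with a constant prior 0.0741. Ephb3, a receptor of B ephrins, varied widely between replicates. Its naive values were 1058, 1161, 409, 2310.2 and 666 on Matrigel, 537, 2288, 607, 597 and 1619 on laminin and 461, 620.1, 885, 511 and 1009 on poly-L-ornithine, and its treated values 481, 357, 1714, 226 and 184, 1168, 222, 240.3, 859 and 231 and 50.2, 296, 330.4, 284 and 429. The groups were apart on poly-L-ornithine alone. The difference of -1.30 (95% CI -2.08 to -0.52, adjusted p = 0.0321) lost its call in 12 of 30 fits without 1 library, up to an adjusted p of 0.0589. Ephb2, a main receptor of ephrin-B1, did not pass (-0.05, 95% CI -0.43 to 0.33).

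Robo2, a Slit receptor, rose and its ligand Slit2 fell. Robo2 values were 77.3, 54.6, 36.8, 116 and 85.7 on naive Matrigel, 3.54, 0, 31.3, 27.4 and 0 on naive laminin and 34.1, 23.5, 46.0, 10.5 and 57.9 on naive poly-L-ornithine. After IL-1β they were 261, 34.0, 86.1, 11.7 and 38.3, 49.0, 158, 37.7, 147 and 143 and 51.1, 122, 199.6, 60.4 and 273. The treated laminin libraries lay above all naive laminin libraries, while the groups overlapped on Matrigel and poly-L-ornithine, and the difference was 1.72 over the coatings (95% CI 0.81 to 2.63, adjusted p = 0.00822) and 3.66 on laminin (adjusted p = 0.00269). The annotated range of Robo2, on chromosome 16 (73891976 to 75447443), also holds 9 other annotated genes. Slit2, a secreted repellent, went from 188 to 904 (median 372) to 83.1 to 482 (median 276) (log2 difference -0.72, 95% CI -1.12 to -0.33, adjusted p = 0.0115), a call that was lost with a constant prior (adjusted p = 0.0539). Robo1, the other main Slit receptor, was low, at 0 to 57.3 (median 21.2) in naive cultures, and did not pass (adjusted p = 0.81). Slit1 did not pass over the coatings, but on Matrigel it was called lower: naive values of 7.9999, 0, 66.1, 46.4 and 26.7 stood against 5 treated libraries listed at 0 (adjusted p = 0.0219). Without naive replicate 3, which held the highest value, that p was 0.0689, without naive replicate 4 0.0704 and without treated replicate 5 0.0511. With only both Matrigel groups in the fit it was 0.143.

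Of the 9 netrins and receptors, Ntn3, a secreted netrin, fell from 17.8 to 143 (median 91.0) to 0 to 77.7 (median 41.1) (log2 difference -1.64, 95% CI -2.61 to -0.67, adjusted p = 0.0225). The difference was -0.11 on Matrigel and -2.89 on poly-L-ornithine, and the response on Matrigel and laminin minus that on poly-L-ornithine did not pass (1.88, 95% CI -0.18 to 3.93, adjusted p = 0.961). Over the coatings, without treated laminin replicate 2 the adjusted p was 0.0518. Ntn3 overlaps Tbc1d24 in the annotation. Unc5b, a repulsive netrin receptor, and Ntn1, the founding netrin, did not pass, with differences of 0.28 (95% CI -0.51 to 1.07) and -0.27 (95% CI -1.02 to 0.48). Dcc was listed at 0 in all 15 naive and 13 treated cultures.

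Single coatings, each with 5 against 5 libraries, called fewer members. On Matrigel 5 fell (0.822% of all genes did) and by limma 0 rose (1.14%), while 5 members were higher at an unadjusted p under 0.05. On laminin 6 fell (0.735%) and Robo2 rose (1.15%), and on poly-L-ornithine 6 fell (1.14%) and Nrp2 rose (1.2%). Sema5a, Plxnb3 and Efnb1 were called on all 3 coatings, and Sema4f on Matrigel and laminin. Efnb1 on poly-L-ornithine (adjusted p = 0.0258) lost its call in 7 of 10 fits without 1 library, up to an adjusted p of 0.0932. Sema4f on laminin lost its call in 7 of 10 such fits, up to an adjusted p of 0.163, and with a constant prior (0.132), and Efna3 on laminin in 2 of 10, up to 0.0664. The calls of Slit2 on laminin and of Ephb6, Ntn3 and Sema3a on poly-L-ornithine were lost in 8, 8, 8 and 5 of 10 such fits.

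A pair of gene lists gave the surroundings of the set. Of 26 tested guidance cues outside it, such as repulsive guidance molecules, teneurins and adhesion molecules of the L1 family, 8 fell over the coatings and 0 rose by limma, beside 4.02% and 3.42% of all genes, with 0 higher at an unadjusted p under 0.05. Dag1, the dystroglycan that binds laminin and Slits, gave a log2 difference of -0.79 ± 0.10, adjusted p = 5.75e-09 (± SE), Rgmb, a repulsive guidance molecule, -0.81 ± 0.14, adjusted p = 3.67e-05, Boc, a co-receptor of Sonic hedgehog, -1.71 ± 0.39, adjusted p = 0.00294, and the teneurin Tenm3 -1.497 ± 0.35, adjusted p = 0.00299. Of 68 genes that transmit guidance signals inside the cell, 2 rose and 8 fell, the former a share near that of all genes. Rnd1, a GTPase that binds plexins, rose by 3.11 ± 0.27, adjusted p = 3.42e-10, and Enah, an actin regulator of the Ena/VASP group, was the other gene that rose. The collapsin response mediator Dpysl3 (-0.78 ± 0.09, adjusted p = 6.41e-10), the actin-binding Ablim1 (-1.30 ± 0.19, adjusted p = 6.31e-07) and the filopodial motor Myo10 (-0.75 ± 0.13, adjusted p = 4.24e-05) fell. The median log2 difference was -0.47 for the cues and -0.03 for the transmitting genes, beside -0.04 over all genes.

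No member was called between the coatings in the main fits. In naive cultures Matrigel and laminin were compared with poly-L-ornithine, and limma called 0 of 68 members, where 0% of all genes were called and 8 members had an unadjusted p under 0.05. Slit2 had the smallest p, with 344, 668, 434, 904 and 356 on Matrigel, 500.1, 735, 272, 486 and 386 on laminin and 188, 288, 372, 209 and 344 on poly-L-ornithine, in overlapping ranges (log2 difference 0.81, 95% CI 0.22 to 1.40, adjusted p = 0.777). After IL-1β the same comparison called 0 members, where 0.305% of all genes were called and 7 members had an unadjusted p under 0.05. The nearest were Epha10, a low Eph receptor at 0, 0, 0, 0 and 0 on Matrigel, 0, 0, 14.3, 0 and 0 on laminin and 24.7, 0, 21.3, 18.1 and 24.0 on poly-L-ornithine (adjusted p = 0.0858), and Ephb2. Ephb2 held 197, 392, 356, 184 and 203 on Matrigel and 312, 336, 339, 161 and 490.5 on laminin against 115, 104, 100.2, 189 and 219.9 on poly-L-ornithine (log2 difference 1.01, 95% CI 0.44 to 1.58, adjusted p = 0.116). Leaving out treated laminin replicate 3 or treated poly-L-ornithine replicate 2 gave 1 called member in each case. A block for the rank of the library serial number also gave 1, beside 1.05% of all genes.

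Laminin against Matrigel over both treatments called 0 members, as 0% of all genes, with 4 members at an unadjusted limma p under 0.05. The response to IL-1β on Matrigel and laminin minus that on poly-L-ornithine called 0 members as well, as 0% of all genes, with 5 members at an unadjusted p under 0.05. With the rank of the library serial number as a block it called 1 member, beside 0.0242% of all genes. Intervals in this last comparison are given for the 3 members apart on every coating. They were -0.92 to 1.42 for Sema5a, -0.82 to 1.08 for Plxnb3 and -1.26 to 0.41 for Efnb1. Differences of 1 log2 unit were within the error above 0 for Sema5a and Plxnb3 and below 0 for Efnb1.

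RNA precipitated with the tagged ribosomes from whole muscularis externa was compared with the 15 naive cultures, with 4 groups in the fit and 20320 genes tested. In RiboTag libraries 27 of 68 members were higher and 13 lower, where 31.3% of all genes were higher and 14.1% lower. The median log2 difference was 1.05 over the members and 0.32 over all genes. After the RiboTag values were lowered by that 0.32, an alternative chosen after the data were seen, 21 members were higher and 17 lower, beside 23.7% and 19.9% of all genes. Dcc, Plxna2, Plxnd1, Sema6b, Slit2 and Unc5a then lost their calls, and Efnb2, Epha5, Nrp1 and Plxnb3 were called lower. Dcc and Sema6b had no naive library above 15, so they entered the test only through the RiboTag group in which they were higher. Plxna2 lost its call without RiboTag replicate 2, 3, 4 or 5 in turn, up to an adjusted p of 0.0951. With no overlap against any coating 13 members lay above and 6 below, as 12.2% and 5.93% of all genes did. Tissue and culture, precipitated ribosome-bound and total RNA, genotype and tamoxifen injection differed together in this comparison and cannot be told apart. The summed markers of smooth muscle, neurons, endothelium, leukocytes, interstitial cells of Cajal and epithelium were higher in every RiboTag than in every naive culture library. They summed to 653 to 1234 against 143 to 556 for 10 endothelial markers, 1550.1 to 2731 against 196 to 1145 for 12 leukocyte markers and 2986 to 3423 against 626 to 2902 for 5 markers of interstitial cells of Cajal. Epithelial markers gave the same order (982 to 2275 summed over the 9 of 10 listed markers in the table, against 0 to 134 in naive cultures, where Vil1 and Cdx2 were at 0), fibroblast markers were lower, and the part of these cells in the differences was not tested.

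**Figure D4:**
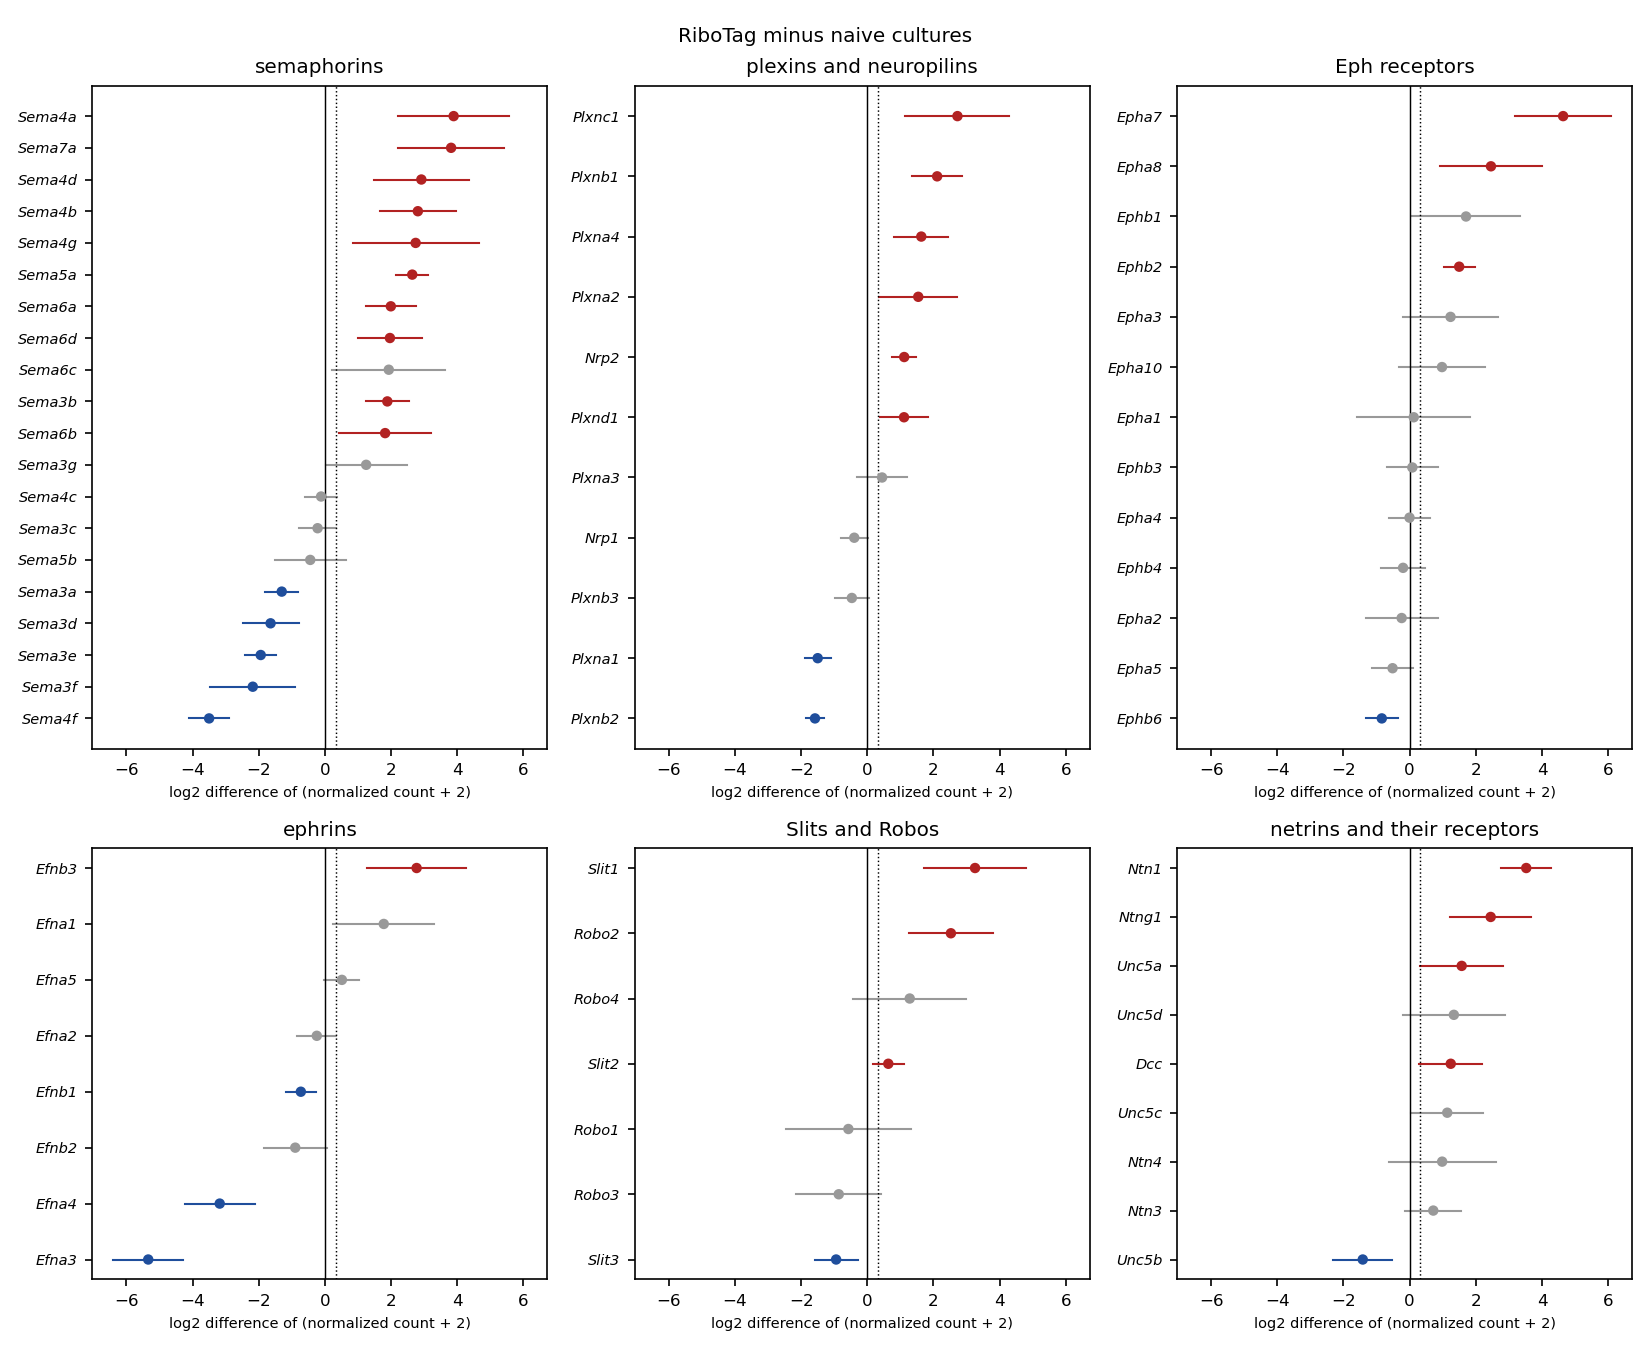
Log2 difference of (normalized count + 2) between the 5 RiboTag and the 15 naive culture libraries for all 68 members by family. Points are estimates with 95% confidence intervals, red for the 27 members higher in RiboTag, blue for the 13 lower and grey for the others, the dotted line marks the median of all genes at 0.32, and the estimate for Efna3, listed at 0 in all 5 RiboTag libraries, depends on the added 2.

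Semaphorins differed in both directions. Of the secreted class 3, Sema3b was higher in RiboTag libraries and Sema3a, Sema3d, Sema3e and Sema3f were lower, while in class 4 Sema4a, Sema4b, Sema4d and Sema4g were higher and Sema4f was lower. Sema6a, Sema6b and Sema6d of class 6, Sema5a and the GPI-anchored Sema7a were all higher. Of these, Sema4g lost its call without RiboTag replicate 5 (adjusted p = 0.056), and Sema6b without RiboTag replicate 1 (0.148) or 3 (0.0959). Sema6b reached 53.6 in RiboTag libraries and 14.3 in naive cultures. Sema3f held 1.22, 1.04, 85.6, 58.6 and 5.47 in RiboTag libraries against 30.7 to 97.9 (median 58.7) in naive cultures. Its RiboTag replicates 3 and 4 thus lay within the naive range. Sema3b, the most abundant semaphorin, held 2671, 2844, 2336, 2729 and 3596 in RiboTag libraries against 303 to 1543 (median 764) in naive cultures, without overlap (log2 difference 1.89, 95% CI 1.24 to 2.54, adjusted p = 5.45e-05). Sema3b shares bases with Lsmem2. Sema5a, a transmembrane semaphorin, held 2186, 1488, 3581, 2378 and 1306 against 134 to 636 (median 299) (log2 difference 2.64, 95% CI 2.16 to 3.13, adjusted p = 4.62e-11). Sema6a, a ligand of class A plexins, stood at 336, 239, 419, 437 and 219.7 against 26.2 to 208 (median 82.0), again without overlap (log2 difference 1.99, adjusted p = 3.28e-05).

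In the other direction, Sema4f held 78.0, 29.1, 17.8, 79.4 and 20.1 in RiboTag libraries against 248 to 709 (median 466) in naive cultures. All RiboTag libraries lay below all naive cultures (log2 difference -3.50, 95% CI -4.09 to -2.91, adjusted p = 3.22e-12). Sema3e held 67.0, 161, 149, 206 and 202 against 323 to 826 (median 585), also without overlap (log2 difference -1.94, adjusted p = 1.23e-08). Sema3c, the second most abundant semaphorin, held 364, 334, 759, 450.0 and 356 against 192 to 815 (median 571) and did not pass (-0.22, 95% CI -0.78 to 0.34).

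**Figure D5:**
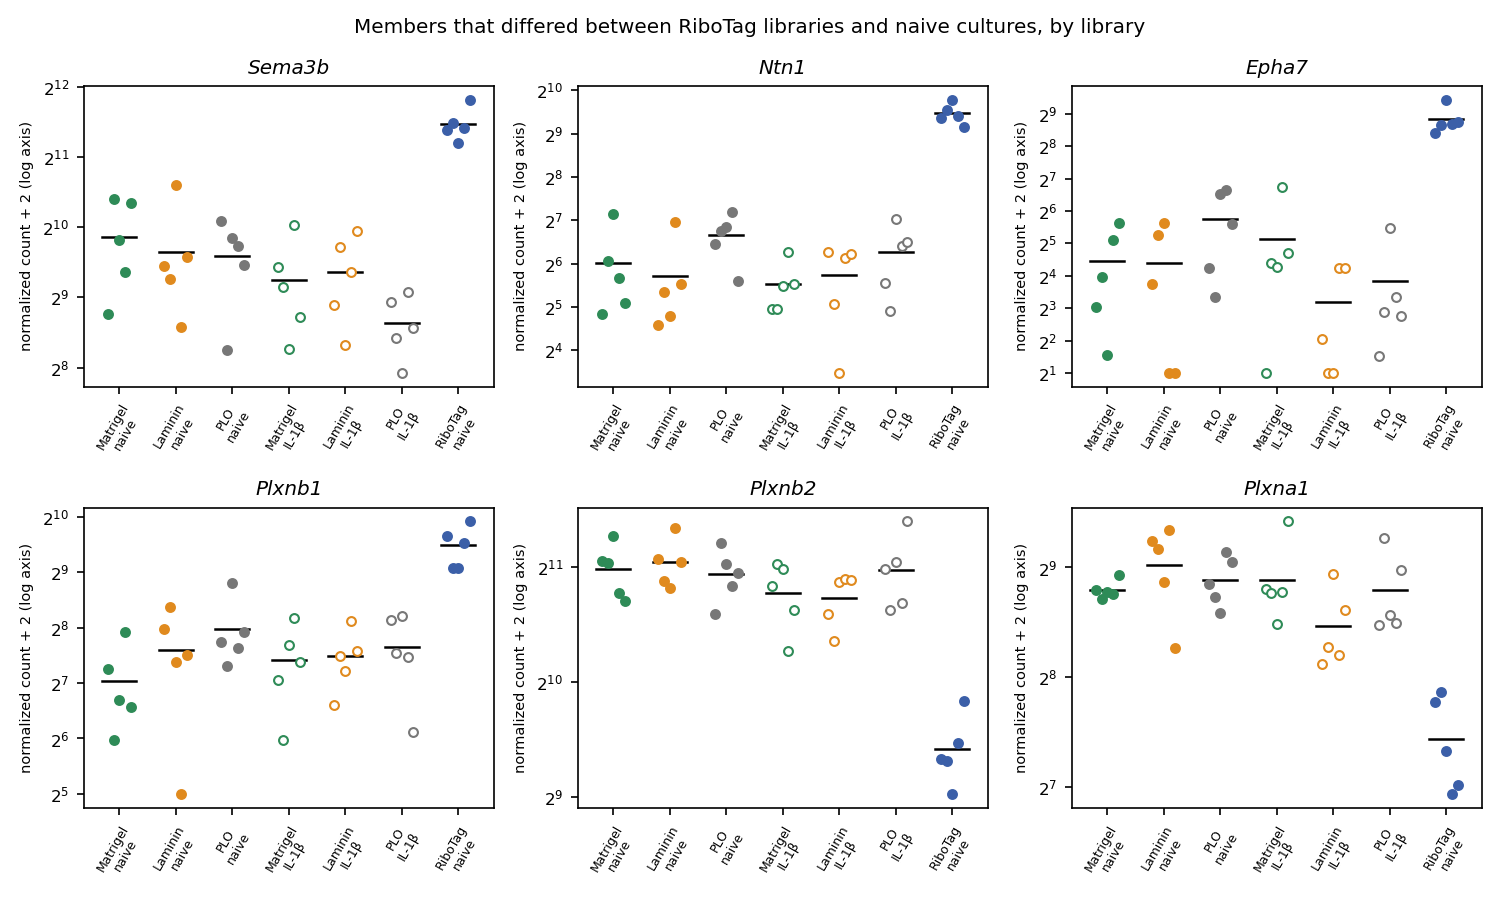
Normalized counts plus 2 on a log axis for Sema3b, Ntn1, Epha7, Plxnb1, Plxnb2 and Plxna1 in every library of the 7 groups (PLO is poly-L-ornithine), with filled points for naive and open points for IL-1β libraries and a line at the group mean. The 5 RiboTag libraries of Sema3b, Ntn1, Epha7 and Plxnb1 lie above all 15 naive culture libraries, and those of Plxnb2 and Plxna1 lie below.

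Of the B plexins, 1 was higher and 1 lower. Plxnb1 held 802, 536, 539, 731 and 967 in RiboTag libraries against 29.8 to 446 (median 179) in naive cultures, all above (log2 difference 2.11, 95% CI 1.36 to 2.86, adjusted p = 2.37e-05). Plxnb2 held 644, 634, 519, 709 and 911 against 1547 to 2595 (median 2091), all below (log2 difference -1.58, 95% CI -1.85 to -1.32, adjusted p = 2.37e-12), and Plxnb3 did not pass (128, 285, 133, 314 and 332 against 179 to 504 (median 324), adjusted p = 0.142). With RiboTag values lowered by the median of all genes, Plxnb3 was lower, with a limma adjusted p of 0.0116. Plxna1, the widely expressed A plexin, was lower at 217, 231, 158, 119.9 and 128 against 305 to 647 (median 459) (log2 difference -1.499, adjusted p = 7.82e-08). Plxna4 was higher at 444, 229, 557, 430.1 and 314 against 10.5 to 249.8 (median 143) (1.63, adjusted p = 0.00103), with 1 library inside the naive range. Nrp2 was higher at 3366, 2308, 3934, 3062 and 2239 against 766 to 2215 (median 1254) (1.12, adjusted p = 4.42e-06), while Nrp1 held 972, 412, 575, 581 and 536 against 485 to 1260.4 (median 825) and did not pass (adjusted p = 0.107). With RiboTag values lowered as above, Nrp1 was called lower (log2 difference -0.72, limma adjusted p = 0.00333).

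Most ephrins that differed were lower in RiboTag libraries. Efna3 was listed at 0 in all 5 RiboTag libraries, against 34.9 to 164 (median 92.4) in naive cultures (adjusted p = 1.48e-10). Efna4, a GPI-anchored ephrin as well, held 28.0, 5.21, 9.51, 25.2 and 0 against 43.4 to 269 (median 99.5), without overlap (log2 difference -3.18, 95% CI -4.24 to -2.12, adjusted p = 4.69e-06). Efnb1 held 271, 143, 354, 254 and 158 against 224 to 560.3 (median 364) in overlapping ranges (-0.73, adjusted p = 0.00704). Efnb3, a B ephrin known from midline axons, was low but higher in RiboTag libraries, at 63.4, 32.3, 40.4, 28.9 and 2.73 against 0 to 19.3 (median 0) (adjusted p = 0.00226). Efna5 did not pass (0.51, 95% CI -0.01 to 1.04).

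Epha7, a receptor of A ephrins, gave the largest positive log2 difference of the members. It held 341, 403, 693, 413 and 429 in RiboTag libraries against 0 to 97.4 (median 17.0) in naive cultures, without overlap (log2 difference 4.64, 95% CI 3.18 to 6.10, adjusted p = 1.69e-06). Ephb2 held 423, 742, 894, 564 and 734 against 115 to 320.1 (median 235), also apart (1.498, adjusted p = 1.45e-06). Epha8 was low and higher at 28.0, 16.7, 20.2, 45.1 and 30.1 against 0 to 33.5 (median 1.84) (adjusted p = 0.00805). Ephb6 was lower at 215, 155, 114, 368 and 185 against 218 to 665 (median 331) (adjusted p = 0.00411). Ephb3, the most abundant Eph receptor, held 764, 895, 859, 784 and 1199 against 409 to 2310.2 (median 666) and did not pass (0.08, 95% CI -0.69 to 0.85).

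Among Slits and Robos, Robo2 held 259.6, 115, 182, 154 and 77.5 in RiboTag libraries against 0 to 116 (median 34.1) in naive cultures (log2 difference 2.53, 95% CI 1.27 to 3.79, adjusted p = 0.000988). Its ligand Slit2 held 597, 579.8, 972, 585 and 445 against 188 to 904 (median 372) with overlap (0.64, adjusted p = 0.0215). Without RiboTag replicate 3, its highest library, the adjusted p was 0.122, and with RiboTag values lowered by the median of all genes it was 0.276. Slit1, a Slit of nervous tissue, held 53.6, 70.8, 44.0, 63.1 and 15.5 against 0 to 66.1 (median 0) (adjusted p = 0.000558). Slit3 was lower, at 87.8, 52.1, 128, 127 and 66.5 against 87.4 to 406 (median 165) (adjusted p = 0.0158, and 0.0724 without RiboTag replicate 2).

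Ntn1 was the clearest of the netrins. It held 649.7, 748, 878, 674 and 571 in RiboTag libraries against 22.1 to 143 (median 48.6) in naive cultures, all above (log2 difference 3.53, 95% CI 2.76 to 4.29, adjusted p = 1.05e-09). Ntng1, a GPI-anchored netrin-G of axons, was also apart at 259.6, 284, 169, 229 and 174 against 0 to 124 (median 55.3) (2.45, adjusted p = 0.000954). Of the netrin receptors, Unc5b was lower at 179, 111, 68.9, 24.3 and 68.4 against 39.5 to 467 (median 252) (adjusted p = 0.00913, and 0.0598 without RiboTag replicate 4). Unc5a was higher, at a group mean of 147 ± 36.7 (SD, n = 5) against 2.68 to 186 (median 45.1) (adjusted p = 0.0359), a call that was lost without RiboTag replicate 1 (adjusted p = 0.0751), 3 (0.0607), 4 (0.087) or 5 (0.0656). Dcc was listed at 0 in all 15 naive cultures and at 28.0, 1.04, 0, 4.51 and 0 in RiboTag libraries (adjusted p = 0.0281), and without RiboTag replicate 4 its adjusted p was 0.0739. Without RiboTag replicate 1, its only library above 15 in this comparison, Dcc was not tested.

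The IL-1β and RiboTag comparisons share the 15 naive cultures, and their log2 differences are therefore only set side by side. Sema5a had -2.45 after IL-1β and 2.64 in RiboTag libraries. Plxna4, an A plexin that works with neuropilins, had -1.75 and 1.63. Nrp2 had 0.70 and 1.12. Sema4f had -1.56 and -3.50, and Efnb1 -1.55 and -0.73. All of these passed the limma test in both comparisons, and they are examples. Of the other members that passed in both, Plxnd1 and Robo2 were higher in both. Efna3, Ephb6, Sema3a, Sema3d and Sema3e were lower in both, and Slit2 was lower after IL-1β and higher in RiboTag libraries.

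Of 26 tested guidance cues outside the set, 16 were higher and 3 lower in RiboTag libraries, with a median log2 difference of 1.37, beside 31.3% and 14.1% of all genes and their median of 0.32. The repulsive guidance molecules Rgmb (2.13 ± 0.16, adjusted p = 2.10e-13, ± SE) and Rgma (2.85 ± 0.25, adjusted p = 1.13e-11) and the hedgehog co-receptor Cdon (2.53 ± 0.30, adjusted p = 8.59e-09) were higher, and the Unc5 ligand Flrt2 was lower (-2.27 ± 0.28, adjusted p = 3.06e-08). Of 67 tested genes that transmit guidance signals, 22 were higher and 16 lower, with a median of 0.28, so the share higher was near that of all genes. Enah (4.79 ± 0.24, adjusted p = 3.02e-18) and the GTPase Rnd2 (2.26 ± 0.18, adjusted p = 5.67e-13) were higher, and the GTPases Rras2 (-2.43 ± 0.17, adjusted p = 4.21e-14) and Rac1 (-1.05 ± 0.10, adjusted p = 1.47e-10) were lower.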

How the data were processed

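Normalized counts of 22180 genes in 35 libraries were used as deposited. The authors prepared QuantSeq 3' mRNA libraries, trimmed reads (cutadapt), aligned them to mm10 with STAR in Partek Flow, quantified genes and divided each library by 1 size factor, and the deposited signal is therefore fractional. The annotation release was not given in the sources used here. Sequencing depth of single libraries is unknown, and library totals were 7522181 to 9185843. Of all values 33.9% were 0.

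Log2(normalized count + 2) was tested with limma 3.58.1 in R 4.3.3 (trended, robust prior; genes with a maximum above 15; Benjamini-Hochberg over all genes; called under 0.05), in a fit of 6 culture groups and in a fit of RiboTag with 3 naive groups. The authors used DESeq2, which needs counts. The tests were checked on simulated data with independent libraries, in which only genes with many counts were changed. That check does not reach members with few counts. Promoter windows and locations came from RefSeq (GRCm38.p6), in Python 3.11.15, and figures from matplotlib 3.10.9.

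Members and lists were chosen with earlier results of these data known. Values per library were given for the 2 most abundant members of each family and up to 4 per family and comparison with the smallest adjusted p, which named 35 members. Nrp1, Robo1, Sema3f, Unc5a and Epha10 were added after their values were seen. Alternatives were other pseudocounts (1 and 8), filters, scalings, priors, blocks, and fits without each library.

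Replicate numbers did not pair the libraries. The rank of the library serial number correlated weakly across the culture groups, with a mean of 0.0976 over 75 pairs of equal rank. All of these pairs lay within 0.0073 to 0.208, and other pairs had a mean of -0.0244. The main fits held no block for this rank. With such a block, limma called 1955 instead of 1539 of all genes for IL-1β over the coatings. Imaging, protein data and raw reads were not analysed here.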

Additional observations from a re-analysis of the deposited data

Results flagged for a closer look

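In 25 of 236 combinations of a named member and a group (10.6%), 1 of the 5 libraries stood apart from the others by more than the critical gap ratio of 0.71. Chance exceeds this ratio in about 1 in 20 groups of normally distributed values. The values here were normalized counts without logs, and a group with a single library above 0 always exceeds it. The 10.6% can therefore not be held against that rate. Of the Eph receptors, Epha7 was highest in Matrigel IL-1β replicate 4 (104 normalized counts, the next library 24.3), in poly-L-ornithine IL-1β replicate 3 (42.7) and in RiboTag replicate 3 (693, the next 429). Epha8 was seen in Matrigel IL-1β replicate 4 alone of its group (13.8). Ephb3 was highest in Matrigel IL-1β replicate 3 (1714, the next 481). Ephb6 was highest in Matrigel naive replicate 4 (665) and poly-L-ornithine IL-1β replicate 2 (268), and lowest in poly-L-ornithine naive replicate 3 (218).

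Slit1 was above 0 in a single library of its group in laminin naive replicate 2 (17.0), laminin IL-1β replicate 3 (19.3) and poly-L-ornithine IL-1β replicate 5 (6.72). Slit2 was highest in RiboTag replicate 3 (972, the next 597) and Slit3 in laminin IL-1β replicate 1 (359, the next 102). Efnb3 was above 0 on naive Matrigel in replicate 1 alone (3.56). Dcc was above 0 in a single library of its group in laminin IL-1β replicate 2 (0.792) and poly-L-ornithine IL-1β replicate 2 (21.7), and its highest RiboTag library was replicate 1 (28.0). Ntn1 was highest in laminin naive replicate 4 (122, the next 44.3) and Ntng1 in laminin IL-1β replicate 1 (56.4, the next 14.2).

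Plxna1 was highest in Matrigel IL-1β replicate 5 (684) and Plxnb1 in poly-L-ornithine naive replicate 3 (446). Sema3a was lowest in poly-L-ornithine IL-1β replicate 5 (165). Sema3c was lowest in poly-L-ornithine naive replicate 1 (192, the next 537) and highest in RiboTag replicate 3 (759, the next 450.0). Sema3e was highest in poly-L-ornithine IL-1β replicate 3 (564, the next 276).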

How the results depend on the processing

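No called member changed direction in any alternative. IL-1β over the coatings called 14 to 19 members in 39 alternatives (15 to 19 without 1 library), Matrigel alone 4 to 6, laminin alone 5 to 8 and RiboTag 35 to 43. Of 702 values of called members over the coatings 35 lost their call, mostly Sema3e and Ephb3, and of 1194 in RiboTag 24 did. The count on poly-L-ornithine was least stable, with 7 members, 4 with a constant prior, 12 with the rank of the library serial number as a block, and 3 to 6 without 1 library (3 without naive replicate 5 or treated replicate 3). Matrigel and laminin against poly-L-ornithine after IL-1β called 1 member with the serial rank block and 0 to 1 without 1 library, and the difference between the coatings' responses called 1 with the serial rank block. The cause was not tested.

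Replicate numbers did not pair the libraries (mean correlation -0.02 over 75 pairs, 2 above 0.1), and with them as a block IL-1β over the coatings called 16 members, without Ephb3 (adjusted p = 0.0603) and Sema3e (0.0525 by limma), and RiboTag 41. The serial number ranks, whose meaning is not given, had a mean correlation of 0.0976, with 30 of 75 above 0.1. Over all genes, calls on Matrigel went from 405 to 242 with a constant prior and 703 with the serial rank block, on laminin from 389 to 659 and on poly-L-ornithine from 484 to 765 with that block, and from 63 to 12 and 218 after IL-1β for both matrix coatings against poly-L-ornithine (naive: from 0 to 2 and 20). A fit of only the groups compared equals the fit used for IL-1β over the coatings, the difference between responses and RiboTag, and was not run for them. Depth of single libraries was not listed in the sources used here and no counting error was computed, and members with a mean under 15 carry the least precision.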
